A study of Mus musculus with 6 samples.

Results

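The genes described here are 10 components of inflammasome signaling, pyroptosis and necroptosis in the mouse dorsal root ganglion (DRG), taken by name from the 48440 rows of the count table: the sensors *Nlrp3*, *Aim2* and *Zbp1*, the adaptor *Pycard*, the caspases *Casp1*, *Casp4* and *Casp8*, the pore formers *Gsdmd* and *Mlkl*, and the kinase *Ripk3*. The rule goes by name and uses no measured value, although the set was proposed with earlier results of these data known. RNA sequencing was carried out on L3/4 DRGs of male mice of WT genotype that had been unilaterally microinjected with adeno-associated virus 5 (AAV5). Of the 6 libraries, 3 came from ganglia given AAV5-*Gfp*, which carries green fluorescent protein and served as the control, and 3 from ganglia given AAV5-*V1+V2*, in which AAV5-*V1* was mixed with AAV5-*V2* so as to deliver both variants of the nerve injury-specific long noncoding RNA NIS-lncRNA. The comparison asks which genes differ in the ganglion when this RNA is supplied without nerve injury. The design text gives a collection at 5 weeks after microinjection and also a time of 4 weeks, which is the time in the paper. Every ganglion, controls included, received a virus by microinjection, and each group had its own virus preparation, so the preparation and the RNA that it carried cannot be told apart. Age, the promoter of the vectors, and whether a library came from a single mouse or from pooled ganglia are not given in the sources used here. Total counts were between 32025612 and 34764282 per library.

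An inflammasome is a protein platform that forms in the cytosol when a sensor meets microbial or host danger signals. The sensor recruits the adaptor ASC, encoded by *Pycard*, which gathers caspase-1, and caspase-1 then matures IL-1β and IL-18 and cuts gasdermin D, whose N-terminal part opens pores in the plasma membrane (pyroptosis). Necroptosis is a second lytic form of cell death in which RIPK3 phosphorylates MLKL, and caspase-8 restrains it. In sensory ganglia these genes are best known from macrophages and other immune cells, although neurons and glia can also express some of them.

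Of the 10 genes, 9 were higher with AAV5-*V1+V2* by edgeR's quasi-likelihood test (adjusted p under 0.05), where 10.1% of the 18593 genes tested were higher. None was lower, where 5.27% of the genes tested were, and DESeq2 also gave 0. At an unadjusted p under 0.05, 9 were higher and 0 lower, against 19.2% and 15.5% of the genes tested. The differences ran from 5.51-fold for *Zbp1*, a sensor of left-handed nucleic acid, and 4.38-fold for *Aim2*, a sensor of cytosolic DNA, to 1.58-fold for *Casp1*. The one gene that was not called was *Nlrp3*, the sensor most widely studied in sterile inflammation, at 1.20-fold. Of the 10 genes, 6 were called and at least 2-fold higher, where 5.66% of the genes tested were. The median log2 fold change of the 10 genes was 1.23, and that of all genes tested was -0.0003. All 10 genes passed the filter on low counts.

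The number of calls depended on single libraries, most of all on the controls. The calls became 1 of 10 (*Aim2*) without AAV5-*Gfp* replicate 1, where 1.35% of all genes tested were higher, and 0 of 10 without AAV5-*Gfp* replicate 2 or replicate 3, where 0.0634% and 0.0792% were. In each of these 3 fits the unadjusted p of 9 genes stayed under 0.05. In the same order, 3086 of 18975, 2916 of 18917 and 2932 of 18947 genes tested were higher at that threshold. When AAV5-*V1+V2* replicate 2 was left out, 5 genes were called (*Aim2*, *Casp4*, *Casp8*, *Gsdmd* and *Ripk3*), where 5.4% of all genes tested were higher. Without AAV5-*V1+V2* replicate 1 or replicate 3, 9 genes were called, where 9.85% and 13.1% were higher. Limma-voom on all libraries called 7, where 7.64% were higher, and lost *Zbp1* and *Pycard*.

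**Figure D1:**
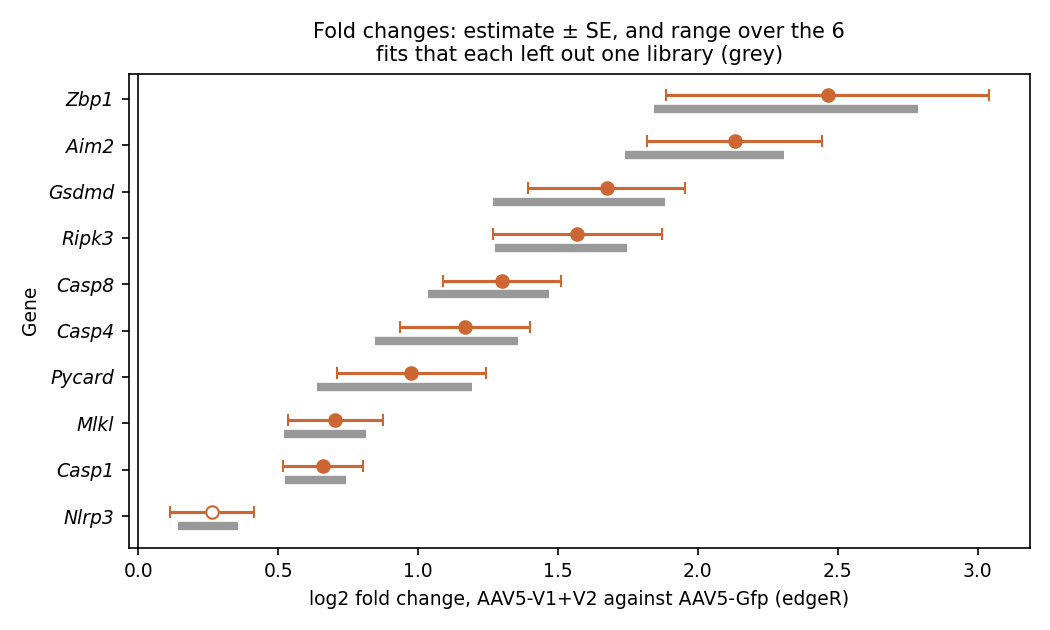
Log2 fold change of each gene, AAV5-V1+V2 against AAV5-Gfp, on the x axis, with genes on the y axis in order of size; points are edgeR estimates with SE bars, filled where the adjusted p was under 0.05, and grey bars span the 6 fits that each left out 1 library. All 10 estimates and all grey bars lie to the right of 0, from 2.46 for Zbp1 to 0.26 for Nlrp3, which has the only open point.

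The ganglion is a mixed tissue, and leukocyte markers differed in the same direction as these genes. All 5 leukocyte markers were called higher, where 10.1% of all genes tested were. Their summed level was between 91.2 and 121.7 CPM (counts scaled to library size) in the controls and between 280.4 and 621.9 CPM in the AAV5-*V1+V2* libraries, a 3.86-fold difference of the means. The sums of 12 macrophage and monocyte markers were between 195.6 and 269.2 CPM in the controls and between 565 and 1605 CPM with AAV5-*V1+V2*. *Lyz2* alone held a large share of these sums, with means of 82.4 CPM in the controls and 559 CPM with AAV5-*V1+V2*. Over the 12 markers the median log2 fold change was 1.72, and 10 were called higher. As for the 10 genes, these calls depended on the controls: without AAV5-*Gfp* replicate 1, 2 or 3, edgeR called 3, 0 and 0 of the leukocyte markers and 1, 0 and 0 of the macrophage markers, while 5 and 11 of them had an unadjusted p under 0.05 in each of these fits. Of all genes tested, these fits called 1.35%, 0.0634% and 0.0792% higher. At an unadjusted p under 0.05 they gave 3086 of 18975, 2916 of 18917 and 2932 of 18947 genes higher. In bulk RNA, more cells of a type and more RNA per cell cannot be told apart, and likewise fewer cells and less RNA per cell. AAV5-*V1+V2* replicate 1 had the highest leukocyte and macrophage sums, and it was also the highest library for each of the 10 genes.

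Promoter windows of RefSeq (GRCm38.p6) were found for 8 of the 10 genes, as 10 windows of 250 bases before an annotated start, and were searched on both strands for 5 short motifs of factors that act in immune cells. The letters were chosen after the windows had been seen. The interferon regulatory factor (IRF) core AANNGAAA was in 6 of the 10 windows and in 21.3% of 32851 promoter windows of the same length. These 6 were windows of *Casp8*, *Pycard*, *Casp4* and *Nlrp3*, the last 2 genes with 2 windows each. The *Casp4* windows overlap and share a match, so the 6 are not independent. The NF-κB motif (GGG and TTTCC with any 2 bases between them) was in 2 windows, both of *Casp4* and overlapping each other, and in 1.41% of all. The SPI1 motif GAGGAAGT was in 2 windows, of *Aim2* and *Pycard*, and in 2.44% of all. The interferon-stimulated response element (GAAA repeated after any 2 bases), which contains the IRF core at its 3′ end, was in none of the 10 and in 2.98% of all, and the STAT motif TTCNNNGAA was in none and in 7.02%. The windows of *Casp1*, *Mlkl* and *Ripk3* held no match to any of the 5 motifs. The windows of 4 genes are shown because they span the DNA sensor, the adaptor and the caspases and hold each motif that was found. They are written 5′ to 3′ on the gene's own strand, and capitals mark the matches.
*Aim2*, chr1:173420354-173420603, plus strand: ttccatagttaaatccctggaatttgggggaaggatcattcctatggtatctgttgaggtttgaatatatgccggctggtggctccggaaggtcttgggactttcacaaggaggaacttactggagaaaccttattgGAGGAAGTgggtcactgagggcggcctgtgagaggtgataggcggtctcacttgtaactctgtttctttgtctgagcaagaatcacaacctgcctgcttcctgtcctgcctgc
*Pycard*, chr7:127993868-127994117, minus strand: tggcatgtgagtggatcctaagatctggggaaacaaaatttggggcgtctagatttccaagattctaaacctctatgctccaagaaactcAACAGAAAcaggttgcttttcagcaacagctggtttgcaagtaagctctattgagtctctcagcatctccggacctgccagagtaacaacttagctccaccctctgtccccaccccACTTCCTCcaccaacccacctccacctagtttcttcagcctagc
*Casp4*, chr9:5308599-5308848, plus strand: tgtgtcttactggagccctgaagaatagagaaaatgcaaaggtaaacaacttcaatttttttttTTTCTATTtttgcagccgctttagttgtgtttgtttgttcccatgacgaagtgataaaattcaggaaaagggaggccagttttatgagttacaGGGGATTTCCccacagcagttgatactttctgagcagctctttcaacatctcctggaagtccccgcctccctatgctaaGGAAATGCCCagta
*Casp8*, chr1:58802252-58802501, plus strand: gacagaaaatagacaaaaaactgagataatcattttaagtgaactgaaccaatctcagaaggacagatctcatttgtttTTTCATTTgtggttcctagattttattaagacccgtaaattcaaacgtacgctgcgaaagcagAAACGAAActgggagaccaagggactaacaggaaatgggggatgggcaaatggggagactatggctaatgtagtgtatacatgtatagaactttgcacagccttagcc
In *Aim2* the capitals are the SPI1 motif, which begins at position -113 counted from the start. In *Pycard* they are an IRF core at -160 and the reverse complement of the SPI1 motif at -44. In *Casp4* they are the reverse complement of an IRF core at -186, then an NF-κB motif at -93 and a match on the opposite strand at -14. In *Casp8* both stretches are IRF cores, the first of them on the opposite strand, at -171 and -108. The annotated starts used for *Aim2*, *Casp4* and *Casp8* lie inside the spans of these genes given below, and not at their first base. A match describes letters and is not evidence that a factor bound there.

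The 3 sensors gave the highest and the lowest fold changes of the set. *Aim2* (chr1:173350879-173466040, plus strand, GRCm38) had counts of 205, 189 and 120 in the AAV5-*Gfp* libraries and 1117, 580 and 595 in the AAV5-*V1+V2* libraries. These correspond to 5.22 ± 1.27 and 22.9 ± 9.56 CPM (mean ± SD, n = 3 each), and every AAV5-*V1+V2* library exceeded the highest control. The log2 fold change was 2.13 (SE 0.31, edgeR adjusted p = 0.0144). *Aim2* overlaps *Cadm3* on the opposite strand without a shared exonic base in the transcripts used, and the summed *Cadm3* count was 19514 over the controls and 14948 over the AAV5-*V1+V2* libraries.

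*Zbp1* (chr2:173206612-173218923, minus strand) encodes a sensor that can engage RIPK3 directly. It had counts of 77, 23 and 77 with AAV5-*Gfp* and 567, 260 and 181 with AAV5-*V1+V2*, or 1.84 ± 1.02 and 10.1 ± 6.30 CPM. The groups did not overlap, but replicates differed more than for any other of the 10 genes, with a low second control library and a high first AAV5-*V1+V2* library. The log2 fold change was 2.46 (SE 0.58, edgeR adjusted p = 0.0336), and without AAV5-*V1+V2* replicate 1 the fold was 3.59 in place of 5.51. With limma-voom the call was lost (adjusted p = 0.0533).

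*Nlrp3* (chr11:59541568-59566956, plus strand) had counts of 262, 238 and 282 with AAV5-*Gfp* and 369, 293 and 302 with AAV5-*V1+V2*. Its level was 8.01 ± 1.09 and 9.61 ± 1.39 CPM. Only AAV5-*V1+V2* replicate 1 lay above every control, and the other 2 libraries lay below the third control, so the groups overlapped. The log2 fold change of 0.26 (SE 0.15) had an adjusted p of 0.256 in edgeR, and it was between 0.14 and 0.36 when single libraries were left out. With scaling to total counts alone the groups separated narrowly, at 8.65 CPM for the highest control and 8.83 CPM for the lowest AAV5-*V1+V2* library.

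**Figure D2:**
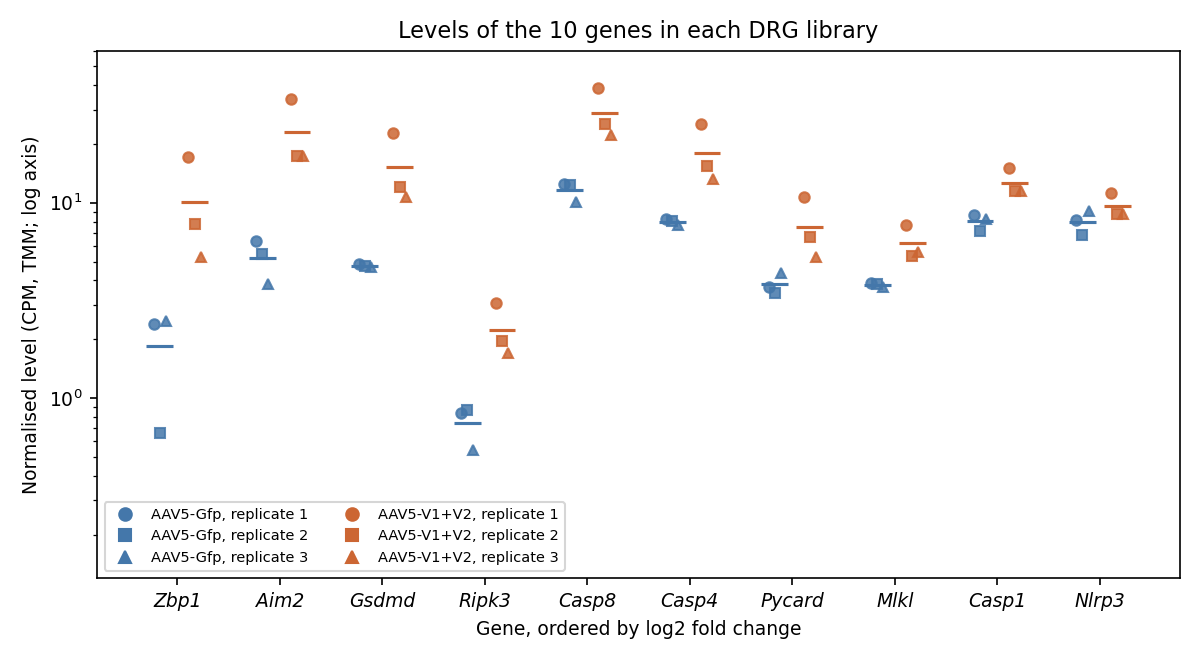
TMM-normalised level of each gene (y axis, CPM, log scale) in the 3 AAV5-Gfp and 3 AAV5-V1+V2 libraries, with genes ordered by fold change on the x axis; symbols are replicates and horizontal lines are group means. For 9 genes every AAV5-V1+V2 point lies above every AAV5-Gfp point, Nlrp3 being the exception, and AAV5-V1+V2 replicate 1 is the highest library for all 10.

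The adaptor gene *Pycard* (chr7:127989708-127993867, minus strand) had counts of 120, 119 and 136 with AAV5-*Gfp* and 353, 222 and 180 with AAV5-*V1+V2*. This was 3.84 ± 0.473 against 7.55 ± 2.84 CPM, without overlap. The log2 fold change was 0.98 (SE 0.27, edgeR adjusted p = 0.0486), the closest to the threshold of the called genes. It was 0.64 without AAV5-*V1+V2* replicate 1, and with limma-voom the call was lost (adjusted p = 0.0720). *Pycard* shares 485 exonic bases with the antisense gene *Gm45205*, which had 65 counts in the AAV5-*Gfp* libraries together and 56 in the AAV5-*V1+V2* libraries. Since the use of strand in counting is not given, reads of these genes cannot be told apart.

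Of the caspases, *Casp1* and *Casp4* are neighbours on the plus strand of chromosome 9. *Casp1* (chr9:5298517-5307265), the protease of the canonical inflammasome, had counts of 279, 248 and 258 with AAV5-*Gfp* and 495, 382 and 396 with AAV5-*V1+V2*. Its level was 8.02 ± 0.773 against 12.7 ± 2.04 CPM, with a log2 fold change of 0.66 (SE 0.14, edgeR adjusted p = 0.0278). *Casp4* (chr9:5308828-5336783), also called caspase-11 in mice and a sensor of cytosolic lipopolysaccharide that cuts gasdermin D, had counts of 266, 278 and 239 against 828, 511 and 454. This was 7.97 ± 0.294 against 17.9 ± 6.37 CPM, a log2 fold change of 1.17 (SE 0.23, edgeR adjusted p = 0.0233). In the controls both genes were at about 8 CPM, and in every AAV5-*V1+V2* library *Casp4* was above *Casp1*. *Casp8* (chr1:58795374-58847503, plus strand), the initiator caspase of death receptors, had the highest CPM of the 10 genes in both groups. Its counts were 404, 427 and 313 with AAV5-*Gfp* and 1266, 847 and 758 with AAV5-*V1+V2*, with a mean of 11.6 ± 1.38 against 28.7 ± 8.65 CPM and a log2 fold change of 1.30 (SE 0.21, edgeR adjusted p = 0.0157). No library of one group overlapped the other for any of the 3 caspases.

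*Gsdmd* (chr15:75862327-75867408, plus strand), which encodes the pyroptotic pore protein, had counts of 156, 165 and 146 with AAV5-*Gfp* and 748, 403 and 369 with AAV5-*V1+V2*. The controls were close together at 4.76 ± 0.0775 CPM, and the AAV5-*V1+V2* libraries spread from 10.8 to 22.7 CPM. The log2 fold change was 1.67 (SE 0.28, edgeR adjusted p = 0.0168).

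Both necroptosis effectors were called higher as well. *Ripk3* (chr14:55784995-55788865, minus strand) was the lowest of the 10 genes, with counts of 27, 30 and 17 against 101, 65 and 58. Its level was 0.749 ± 0.177 CPM in controls and 2.24 ± 0.732 CPM with AAV5-*V1+V2*, a log2 fold change of 1.57 (SE 0.30, edgeR adjusted p = 0.0221). *Mlkl* (chr8:111311797-111338177, minus strand), which encodes the pore-forming substrate of RIPK3, had counts of 125, 133 and 116 against 254, 178 and 191. Its controls, at 3.81 ± 0.0818 CPM, were again close together, and the AAV5-*V1+V2* mean was 6.21 ± 1.31 CPM, with a log2 fold change of 0.70 (SE 0.17, edgeR adjusted p = 0.0361). The groups did not overlap for either gene.

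Over the 9 called genes, every AAV5-*V1+V2* library lay above every control, an arrangement that 23.4% of all genes tested showed. An exact two-sided permutation test over the libraries gave p = 0.1 for each of these genes, the smallest that 3 against 3 allows, and p = 0.3 for *Nlrp3*. The labels do not say that the libraries came from separate mice, so the p-values measure the spread between these samples, which may in part be technical.

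To compare levels between genes, CPM was divided by the length of the longest coding transcript (RPKM). With AAV5-*Gfp* the caspases were highest, at 5.56 RPKM for *Casp4*, 5.36 for *Casp1* and 4.50 for *Casp8*, and neighbours among these overlapped. *Gsdmd* followed at 2.66 RPKM, separate from the genes on either side. *Nlrp3* (1.99 RPKM), *Mlkl* (1.90) and *Aim2* (1.84) could not be ordered by their libraries, and neither could *Pycard* (1.01), *Zbp1* (0.925) and *Ripk3* (0.381) from 1 neighbour to the next. With AAV5-*V1+V2* the order was *Casp4* at 12.5 RPKM, *Casp8* at 11.1, *Gsdmd* and *Casp1* both at 8.48, *Aim2* at 8.07, *Zbp1* at 5.08, *Mlkl* at 3.10, *Nlrp3* at 2.39, *Pycard* at 1.99 and *Ripk3* at 1.14, and each neighbouring pair overlapped. *Nlrp3* stood in place 5 in the controls and in place 8 with AAV5-*V1+V2*. The level of *Pycard* depends on an annotated transcript of 3800 bases.

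The wider pathways were read from 59 further genes, of which 56 passed the filter. Of these, 36 were called higher and 0 lower, with a median log2 fold change of 0.61. Over all genes tested, 10.1% were called higher and 5.27% lower, and these shares also apply beside the single lists below. At an unadjusted p under 0.05, 43 were higher and 0 lower, against 19.2% and 15.5% of all genes tested. DESeq2 called 39 higher, where it called 12.2% of all genes. Without AAV5-*Gfp* replicate 1, 2 or 3 edgeR called 1, 0 and 0, where 1.35%, 0.0634% and 0.0792% of all genes tested were higher. At an unadjusted p under 0.05 the counts in these fits were 42, 42 and 41. Over all genes tested, 3086 of 18975, 2916 of 18917 and 2932 of 18947 were higher at that threshold. Without AAV5-*V1+V2* replicate 2 edgeR called 15, where 5.4% of all genes tested were higher.

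Among other inflammasome sensors and regulators, 11 of 14 tested genes were called higher, with a median log2 fold change of 1.61. They included *Naip6* (1.84 ± 0.337 CPM against 5.23 ± 1.27, SD, edgeR adjusted p = 0.0144) and *Naip2* (log2 fold change 1.97, SE 0.38, adjusted p = 0.0225), whose family recognises bacterial flagellin and secretion-system proteins, and the DNA-binding gene *Ifi204* (1.75, SE 0.34, adjusted p = 0.0218). *Nlrp1a*, a sensor that needs no ASC for caspase-1 activation, was at 1.87 (SE 0.37, adjusted p = 0.0228). The *Naip* and *Nlrp1* genes have close copies in mice, and reads shared between copies make their separate values uncertain. The 3 genes not called, named after their values had been seen, were *Nlrp12* (-0.21), *Naip1* (-0.28) and *Nek7*, the NLRP3 partner kinase (-0.09), and *Nlrp6* did not pass the filter.

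Of the cytokines, *Il1b* had counts of 18, 25 and 27 with AAV5-*Gfp* and 363, 179 and 52 with AAV5-*V1+V2*, a log2 fold change of 3.06 (SE 0.68, edgeR adjusted p = 0.0296). The third AAV5-*V1+V2* library was well below the first. *Il1a* had 1, 5 and 2 against 68, 18 and 17 counts, so its fold change (log2 3.61, SE 0.82, adjusted p = 0.0317) rests on very few control reads. *Il18bp*, which encodes the soluble binding protein of IL-18, was at 1.12 (SE 0.25, adjusted p = 0.0300), and *Ninj1*, which completes membrane rupture after pore formation, was at 0.77 (SE 0.20, adjusted p = 0.0442). *Il18* itself, named with its value known, was at 0.47 (SE 0.19) and was not called (edgeR adjusted p = 0.123). In all, 5 of 7 tested genes of this list were called higher, and *Gsdma* and *Gsdmc* did not pass the filter.

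Of 15 genes of death receptors and the RIPK1 complex, 10 were called higher, with a median of 0.51. The 4 with the smallest adjusted p were *Birc3*, a ubiquitin ligase of TNF signaling (1.85, SE 0.31, edgeR adjusted p = 0.0168), *Tnfaip3*, which encodes A20 (2.18, SE 0.37, adjusted p = 0.0172), the caspase-8 adaptor *Fadd* (0.93, SE 0.18, adjusted p = 0.0212) and the caspase-8 regulator *Cflar* (0.52, SE 0.11, adjusted p = 0.0287). Of 11 genes of apoptosis caspases and the apoptosome, 3 were called higher, with a median of 0.32. They included *Casp12* (0.31, SE 0.066, adjusted p = 0.0267) and *Casp2* (0.51, SE 0.11, adjusted p = 0.0272). *Apaf1*, the scaffold of the apoptosome, was at 0.69 (SE 0.20) and did not pass (adjusted p = 0.0561).

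Of 9 genes that sense nucleic acids or microbial products, or that carry the interferon response, upstream of *Zbp1*, *Aim2* and *Ripk3*, 7 were called higher, with a median of 1.03. The transcription factor *Irf8* was at 2.56 (SE 0.39, edgeR adjusted p = 0.0146), *Tmem173*, which encodes STING, at 1.89 (SE 0.33, adjusted p = 0.0174) and the lipopolysaccharide receptor *Tlr4* at 0.46 (SE 0.090, adjusted p = 0.0225). Of the 36 genes called over the 5 lists, 23 were at least 2-fold higher, where 5.66% of all genes tested were called and at least 2-fold higher.

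**Figure D3:**
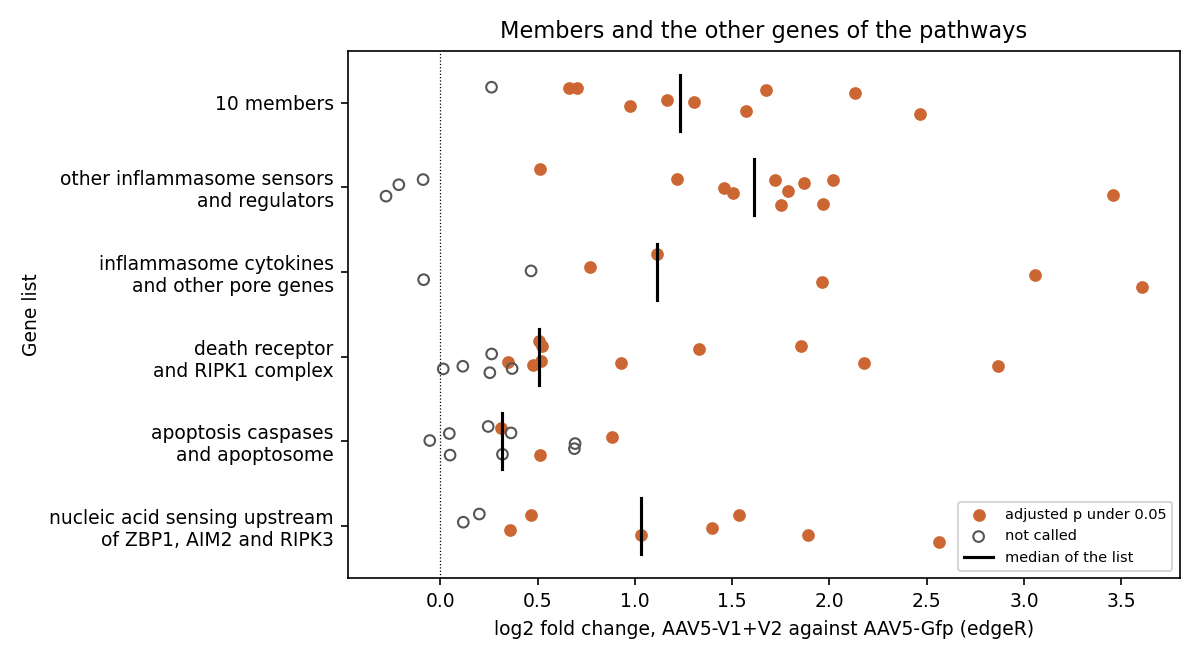
Log2 fold change (x axis, AAV5-V1+V2 against AAV5-Gfp, edgeR) of each tested gene in the 10 members and the 5 other pathway lists (y axis); filled points had an adjusted p under 0.05, open points did not, and vertical bars are list medians. Medians run from 1.61 for the other inflammasome sensors to 0.32 for the apoptosis caspases, and no filled point lies below 0.

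Markers of other cells were measured in the same libraries, where edgeR called 10.1% of all genes tested higher and 5.27% lower. Of T and NK cell markers, 7 of 9 were called higher (sums between 2.77 and 7.56 CPM against 26.7 to 63.2 CPM), of B and plasma cell markers 6 of 6 (sum 33.1-fold higher), of dendritic cell markers 4 of 6 (1.42-fold), and of endothelium and fibroblast markers 1 of 6 (1.43-fold, 3 at an unadjusted p under 0.05). Without AAV5-*Gfp* replicate 2, and likewise without replicate 3, edgeR's calls in these lists became 0, 1, 0 and 0. At an unadjusted p under 0.05 the counts in those fits were 8 and 9 for T and NK cells, 6 for B and plasma cells, 5 for dendritic cells and 3 for endothelium and fibroblasts. For neutrophil markers 0 of 6 were called by edgeR (5 at an unadjusted p under 0.05, 4 by DESeq2), with a 1.79-fold higher sum. The neuronal sum was between 5710 and 6051 CPM with AAV5-*Gfp* and between 3611 and 5106 CPM with AAV5-*V1+V2*, and the lowest value was in AAV5-*V1+V2* replicate 1. Of 9 neuronal markers, *Rbfox3* was called lower by edgeR (-0.93, SE 0.19, adjusted p = 0.0256). DESeq2 called 4 of the 9 lower, where it called 7.35% of all genes lower. In edgeR, 4 were lower at an unadjusted p under 0.05, where 15.5% of all genes tested were. For Schwann cell markers 0 of 6 were called (0 at an unadjusted p under 0.05 and by DESeq2), with a 1.04-fold sum. For satellite glia 1 of 5 markers was called lower (*Cadm2*, -0.62, SE 0.11, adjusted p = 0.0182) with a 0.960-fold sum (2 lower at an unadjusted p under 0.05, 1 by DESeq2). For erythrocytes 0 of 5 were called (1 at an unadjusted p under 0.05, 0 by DESeq2) with a 1.07-fold sum. Without AAV5-*Gfp* replicate 2, and likewise without replicate 3, edgeR called 0 of all genes tested lower, so the calls of *Rbfox3* and *Cadm2* were lost. None of the markers was at 0 in all libraries. Their part in the differences of the 10 genes was not tested.

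**Figure D4:**
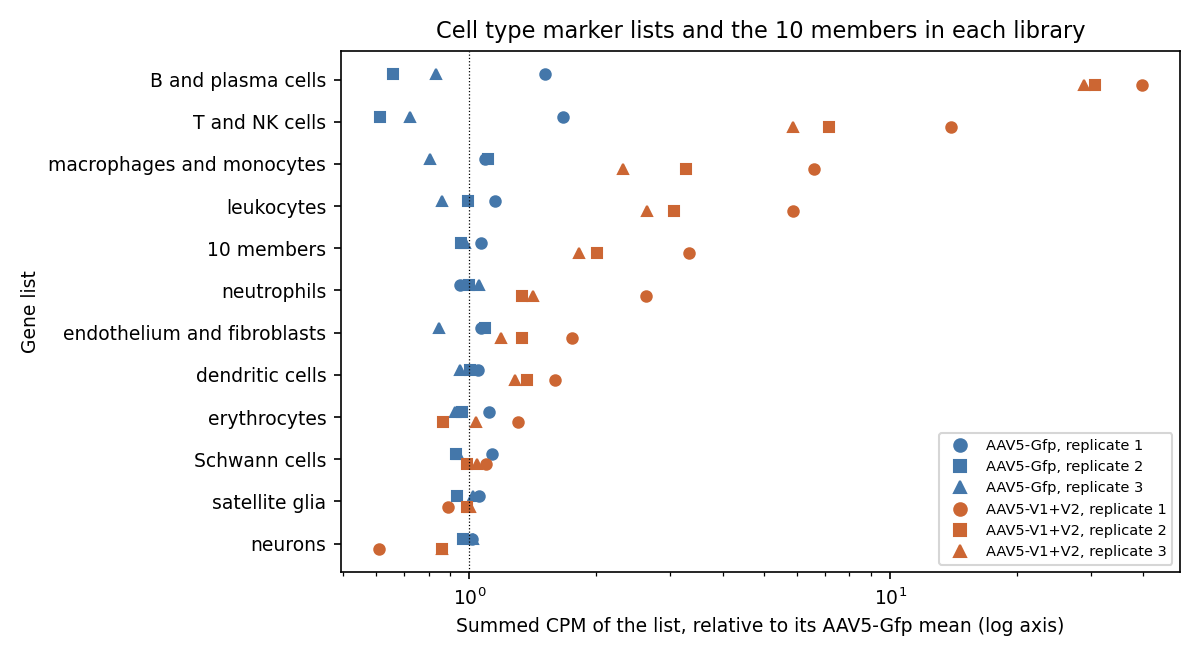
Summed CPM of each cell type marker list, and of the 10 genes together, in every library, relative to the AAV5-Gfp mean of the list (x axis, log scale); lists on the y axis are ordered by the ratio of group means, and symbols are replicates. The B and plasma cell list has the highest ratio (33.1) and the neuronal list the lowest (0.778). The leukocyte and macrophage lists are at 3.86 and 4.06, and the 10 genes are at 2.38. Sums weigh abundant genes most, such as Jchain in the B and plasma cell list and Lyz2 in the macrophage list.

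The genes were next expressed per 1000 counts of the 5 leukocyte markers *Ptprc*, *Cd52*, *Laptm5*, *Coro1a* and *Cd53*. Since these markers were themselves higher with AAV5-*V1+V2*, a gene of unchanged level comes out lower on this scale, and 93.5% of all genes tested were lower without overlap and 1.63% were higher. Of the 10 genes, 7 were lower without overlap, 1 was higher and 2 overlapped, so the count of lower genes is not a result about the set. The median log2 ratio of the groups on this scale was -0.67 over the 10 genes and -1.80 over all genes. *Nlrp3* went from 66.7, 65.5 and 99.1 counts per 1000 with AAV5-*Gfp* to 18.0, 27.2 and 31.4 with AAV5-*V1+V2*. *Gsdmd* was at 39.7, 45.4 and 51.3 against 36.6, 37.4 and 38.4, a much narrower gap. *Aim2*, at 52.2, 52.0 and 42.2 against 54.6, 53.8 and 61.9, was the gene that was higher. With the 12 macrophage and monocyte markers below the line, 6 genes were lower, 0 higher and 4 overlapped, *Aim2* among the latter. Of all genes tested, 92.6% were lower on that scale and 1.54% higher. *Lyz2* was the most abundant of the 12 markers (82.4 CPM in the controls and 559 CPM with AAV5-*V1+V2*), so it weighs most there. A macrophage ratio without *Lyz2* was not taken. Because *Coro1a* alone held a large share of the leukocyte sum in the controls (56.3 CPM), the ratio was also taken without it, and then 9 genes were lower, *Aim2* included, and *Zbp1* overlapped, where 96.6% of all genes tested were lower and 0.791% higher. The exact permutation p of each separated gene was 0.1, the smallest that 3 against 3 libraries allow. The direction for *Aim2* thus depended on which markers were used.

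**Figure D5:**
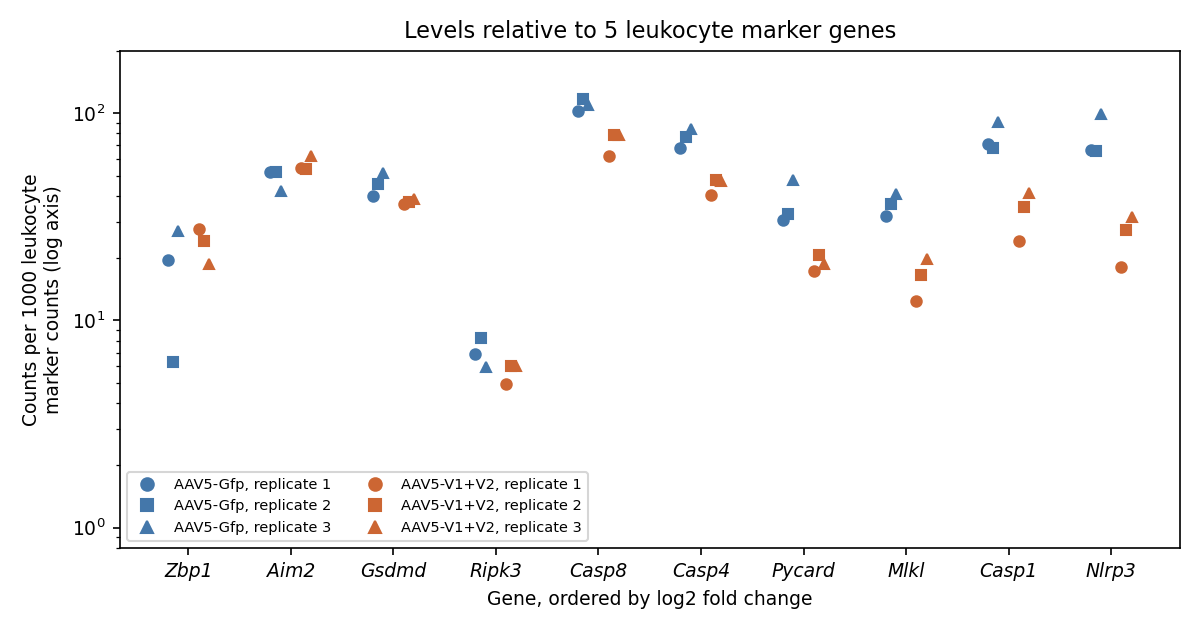
Counts of each gene per 1000 counts of 5 leukocyte markers (y axis, log scale) in every library, with genes on the x axis ordered by fold change; symbols are replicates. The scale itself lowers most genes (93.5% of all genes tested lie lower without overlap). Here 7 of the 10 do, Zbp1 and Ripk3 overlap, and Aim2 is the gene with all AAV5-V1+V2 points above the AAV5-Gfp points.

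The genes whose pattern over the 6 libraries was most like the mean of the 10 genes were *Trim30a* and *Slfn2* (Pearson r = 0.9997 each), *Cdk2ap2* (0.9994), *Pirb* (0.9993) and *Tmem173* (0.9990), among 14555 genes compared. This is a description, since the libraries are few and share the difference between groups, and 1482 genes had an r over 0.95. *Cdk2ap2* had a log2 fold change of only 0.45, against 1.66 for *Trim30a* and 2.25 for *Slfn2*, since likeness was measured in shape and not in size.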

How the data were processed

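Total RNA of 6 mouse DRG libraries was sequenced. The authors deposited 1 table of raw counts, 1 row a gene, and the labels name the builds GRCm38 and mm10. The aligner, the counter, its strand setting and its treatment of shared reads are not given in the sources used here. Groups were taken from the labels. Counts were tested in R 4.3.3 with edgeR 4.0.16 (filterByExpr, TMM, glmQLFit and glmQLFTest without a covariate, Benjamini-Hochberg adjustment over 18593 genes, threshold 0.05). The SE is the absolute log2 fold change divided by the square root of F. CPM is TMM-normalised. Positions and lengths are from GENCODE M21. Only the edgeR fit described above was tested on simulated counts, in 5 draws with 200 changed genes each, and the other calculations were not. Alternatives covered scaling, filter, DESeq2 1.42.0, limma 3.58.1, a replicate block and each library left out.

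The members and gene lists were chosen with earlier results of these data known. All members were named, with at most 4 genes of each pathway list (smallest adjusted p), any of their genes called lower, at most 2 of each marker list, and the 5 genes most like the members among those with a mean log2 CPM of at least 1. Outside this rule, *Nlrp12*, *Naip1*, *Nek7*, *Il18* and *Gsdme* were named with their values known. Also outside it are *Nlrp6*, *Gsdma* and *Gsdmc*, which did not pass the filter, and *Cadm3* and *Gm45205*, which overlap a member. All 5 leukocyte markers were named because the ratio uses them. The overexpressed RNA is not analysed here, and some genes that this rule names are not reported here.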

Additional observations from a re-analysis of the deposited data

How the results depend on the processing

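The first fit called 1872 genes higher and 980 lower, 9 members and 36 other pathway genes higher. Over 160 alternative values of the members, 0 changed direction, 128 stayed on their side of the threshold and 32 lost the call. Scaling, filtering, edgeR's exact test and robust empirical Bayes each left 9 members called, where between 6.87% and 12.7% of all genes tested were higher, and limma-voom left 7. DESeq2 called 1488 genes lower, and a 2-fold minimum left 1052 higher and 47 lower. When each library was left out in turn, genes called higher were between 12 and 2474, genes called lower between 0 and 1446, members called between 0 and 9, and other pathway genes called between 0 and 39 (edgeR). The fits without a control library gave the fewest calls, and the cause was not tested. At an unadjusted p under 0.05 the counts without AAV5-*Gfp* replicate 1 were 3086 higher and 2192 lower. Without replicate 2 the counts were 2916 and 2029, and without replicate 3 they were 2932 and 1815. Relative to marker counts, the 1 gene that was higher without overlap became 0 with macrophage markers and 0 without *Coro1a*, both chosen after seeing the data. With the replicate number as a block, 9 members and 37 other pathway genes were called (2118 genes higher and 1341 lower). The numbers share nothing in the labels, deviations of same-numbered libraries correlated at 0.048, 0.103 and 0.178, and 5 of 6 libraries correlated best with their own number. *Ripk3*, with 17 to 30 counts per control, had the least depth.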

Other observations

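The ratio of *Nlrp3* to each other sensor was lower with AAV5-*V1+V2* in all libraries, which follows from its lower fold change. This was not particular to the sensors, since its ratio to every other member was lower without overlap too. Of the 45 pairs of members, 34 had ratios that did not overlap between groups. The share over pairs of other genes was not computed, so these counts of pairs are not results about the set. The ratio of *Nlrp3* to *Aim2* counts was 1.28, 1.26 and 2.35 in the AAV5-*Gfp* libraries and 0.330, 0.505 and 0.508 in the AAV5-*V1+V2* libraries, and that of *Nlrp3* to *Zbp1* was 3.40, 10.3 and 3.66 against 0.651, 1.13 and 1.67. The ratio of *Aim2* to *Zbp1* overlapped, at 2.66, 8.22 and 1.56 against 1.97, 2.23 and 3.29. These are values without a test. *Gsdme*, listed under its older symbol *Dfna5* and the other widely expressed gasdermin gene, had a log2 fold change of -0.09 (edgeR adjusted p = 0.388), beside 1.67 for *Gsdmd*.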
